A study of Mus musculus with 2207 samples.

Results

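The AP-1 and Egr immediate early factors are 10 transcription factor genes: *Fos*, *Fosb* and *Fosl2* of the Fos family, *Jun*, *Junb* and *Jund* of the Jun family, and *Egr1*, *Egr2*, *Egr3* and *Egr4* of the Egr zinc finger family. They were chosen by symbol, and each of the 10 symbols named 1 row among the 52636 genes of both expression tables. Their RNA was read in 2207 single nuclei of mouse cortex by RamDA-seq, a full-length method that primes total RNA at random. Values are RPKM (reads per length of gene and per depth of the nucleus), averaged over the nuclei of a pool, a class or a labelled cell type.

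Proteins of the Fos and Jun families pair through leucine zippers to form AP-1, which binds DNA; Jun proteins can pair with one another, while Fos proteins need a Jun partner. Most of these genes are immediate early genes: synaptic activity and calcium entry switch them on within minutes through factors that are already in the nucleus, such as CREB and SRF, and their RNA is short-lived. In cortex they are widely used as a trace of recent neuronal activity, and their products drive later genes of plasticity. *Jund* and *Fosl2* are the members better known for steady or slower expression.

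The nuclei came from 6 pools of C57BL/6 mice, each of 3 mice at 14 weeks, and every pool had been given tamoxifen at 100 mg/kg, 2 times, from 3 weeks of age. In 96-well plates there were WT (wild type, Ehmt1+/+) and Ehmt1delta/+ mice, which carry 1 deleted copy of *Ehmt1*, the gene of the histone H3 lysine 9 methyltransferase GLP. In 384-well plates all 4 pools carried the Ehmt1 iTg allele, a Rosa26-CAG transgene that makes FLAG-GLP after Cre acts: WT (Ehmt1+/+; Ehmt1 iTg) and Ehmt1delta/+ (Ehmt1delta/+; Ehmt1 iTg) had no CamKII-CreER by the labels, while iTg (Ehmt1+/+; Ehmt1 iTg; CamKII-CreER) and Ehmt1delta/+ iTg (Ehmt1delta/+; Ehmt1 iTg; CamKII-CreER) had this forebrain neuron driver. Which mouse a nucleus came from is not in the labels, so a pool counted as 1 sample, and p-values measure the spread between pools. The authors' labels named 1664 neurons, 146 microglia and 397 oligodendrocytes.

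Depth and labels were checked first. The median read total of a neuron was between 323273 and 397880 in every pool, and that of glia was between 441701 and 510639 in 96-well but between 39940 and 54877 in 384-well plates, so a member at 0 in 384-well glia says little. The summed RPKM of 3 neuronal markers was 147 to 245 in neurons, and that of 5 microglial and 5 oligodendrocyte markers was 1712 to 3127 and 2553 to 4009 in the nuclei so labelled. In the glia of the WT 96-well pool the neuronal markers summed to 60.3 in microglia and 50.8 in oligodendrocytes, against 1.49 to 13.8 and 2.36 to 12.2 in the other pools. *Snap25*, 1 of these 3 markers, alone gave 51.7 and 41.3 in the WT 96-well microglia and oligodendrocytes. *Ehmt1* RNA was higher, not lower, in the neurons labelled Ehmt1delta/+, with 31.2 against 18.7 RPKM in 96-well and 31.7 against 19.5 in 384-well plates, so every direction by genotype below rests on the labels. In the 384-well pools with CamKII-CreER it was 20.7 in iTg and 33.9 in Ehmt1delta/+ iTg neurons, each close to the pool without the driver, and whether reads of the transgene count in this row was not tested. The tables do not separate reads of the alleles.

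Promoter sequence was searched for sites of factors known to act on such genes. Windows from RefSeq (GRCm38.p6) were used for 8 of the 10 members, *Egr1* and *Egr3* were not analysed here, and the 250 bases before each start were searched on both strands for TGACG, the core of the cyclic AMP response element that CREB binds. It was present for 5 of the 8 members, *Fos*, *Fosb*, *Junb*, *Egr2* and *Egr4*, and in 17.8% of 32851 windows of all genes. *Egr2* has 5 windows, of which 3 hold the core, and was counted once, while the share over all genes is per window. The window of *Jund*, chr8:70697489-70697788, ends before the *Jund* start of GENCODE M21 (70698949), so the lack of sites there says little. That of *Fosl2*, chr5:32136222-32136521, begins after the *Fosl2* start of GENCODE M21 (32135801), so the bases before that start were not searched. The full element TGACGTCA was found in 0 of the 8 (1.55% of all windows), the AP-1 site TGANTCA in 0 of the 8 (6.75%) and the Egr site GCGTGGGCG in 0 of the 8 (0.536%). For AP-1 only the letters TGANTCA were searched, and other forms of the site were not. The 160 bases before the start are shown for those 5 members, with *Jun* and *Fosl2* as members without the core in the window searched. Capitals mark TGACG or its other strand CGTCA and, in *Fos*, a TATA box (TATAAA, in 7.59% of windows, 1 strand searched), and in *Egr2* a CArG box, the site of SRF (1.47% of windows). The CArG box overlaps none of the other marked letters, and the stretch shown for *Egr2* lies before 1 of its 5 annotated starts. The positions are chr12:85473730-85473889 (plus strand) for *Fos*, chr7:19310046-19310205 (minus) for *Fosb*, chr8:84978749-84978908 (minus) for *Junb*, chr10:67537709-67537868 (plus) for *Egr2*, chr6:85513590-85513749 (minus) for *Egr4*, chr4:95052223-95052382 (minus) for *Jun* and chr5:32136312-32136471 (plus) for *Fosl2*.
Fos: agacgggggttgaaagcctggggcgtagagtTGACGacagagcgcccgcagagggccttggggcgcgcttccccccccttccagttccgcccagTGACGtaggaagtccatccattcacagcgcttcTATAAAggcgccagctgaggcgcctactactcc
Fosb: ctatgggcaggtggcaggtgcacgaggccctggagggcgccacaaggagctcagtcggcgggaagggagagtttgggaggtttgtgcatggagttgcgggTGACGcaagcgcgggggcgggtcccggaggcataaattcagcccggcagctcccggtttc
Junb: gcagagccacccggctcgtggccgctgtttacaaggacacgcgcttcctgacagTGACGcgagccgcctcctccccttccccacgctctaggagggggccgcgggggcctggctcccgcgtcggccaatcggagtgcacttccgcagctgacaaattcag
Egr2: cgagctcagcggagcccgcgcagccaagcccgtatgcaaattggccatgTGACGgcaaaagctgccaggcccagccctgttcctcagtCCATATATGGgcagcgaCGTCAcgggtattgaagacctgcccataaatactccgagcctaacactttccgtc
Egr4: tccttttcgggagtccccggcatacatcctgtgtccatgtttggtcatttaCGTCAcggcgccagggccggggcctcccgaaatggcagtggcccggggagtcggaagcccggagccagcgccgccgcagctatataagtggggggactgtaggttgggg
Jun: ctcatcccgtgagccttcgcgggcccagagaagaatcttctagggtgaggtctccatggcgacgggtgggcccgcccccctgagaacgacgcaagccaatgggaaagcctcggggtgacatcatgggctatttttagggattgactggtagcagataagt
Fosl2: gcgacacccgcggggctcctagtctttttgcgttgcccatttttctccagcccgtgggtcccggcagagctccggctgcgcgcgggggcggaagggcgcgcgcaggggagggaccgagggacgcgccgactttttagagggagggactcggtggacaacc

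In neurons the Egr genes gave the highest levels of the 10 members. *Egr1*, a zinc finger factor of plasticity, averaged 10.45 RPKM in WT and 2.52 in Ehmt1delta/+ neurons of the 96-well plates, and 29.7 in WT, 17.9 in Ehmt1delta/+, 11.2 in iTg and 15.2 in Ehmt1delta/+ iTg neurons of the 384-well plates. *Egr3*, a related early factor, averaged 9.18 and 7.28 in the 96-well and 11.5, 18.0, 14.5 and 11.5 in the 384-well pools, in the same order. Either *Egr1* or *Egr3* was the highest member in each of the 6 pools. *Egr2* and *Egr4*, of the same family, were far lower, with 0.411 to 3.12 and 0.371 to 3.30 RPKM.

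Among the Fos genes, *Fos*, the classical activity marker, averaged 2.47 and 1.22 RPKM in WT and Ehmt1delta/+ neurons of the 96-well plates and 12.6, 7.12, 4.64 and 4.49 in WT, Ehmt1delta/+, iTg and Ehmt1delta/+ iTg neurons of the 384-well plates. *Fosl2*, which encodes FRA2, was steadier at 5.62, 2.81, 3.47, 6.29, 4.75 and 4.52 RPKM in the same order. *Fosb*, the source of the long-lived splice form deltaFosB, was low at 1.07, 0.161, 0.939, 1.13, 0.689 and 0.559. The pools overlapped by format for *Fosb* and *Fosl2*, while the 4 384-well pools were all above both 96-well pools for *Fos*.

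The Jun genes, whose products are the partners of the Fos proteins, lay between 0.738 and 5.47 RPKM in neurons. *Jund* averaged 2.13, 1.03, 4.48, 2.92, 2.89 and 2.61, *Junb* 1.72, 0.738, 5.47, 3.23, 1.77 and 2.08, and *Jun* 1.495, 0.9501, 3.04, 1.77, 2.10 and 1.92 RPKM in the order given above. For all 3 the Ehmt1delta/+ 96-well pool was the lowest and the WT 384-well pool the highest. Counting did not use strand, and *Jun* overlaps the antisense gene *Junos*, *Junb* overlaps *Prdx2* and *Jund* overlaps the antisense gene *Gm11175*. Of the values above 0, 18.8% for *Jun*, 20.1% for *Junb* and 51.0% for *Jund* were not whole reads, so the values of these 3 genes are uncertain, and how reads were shared with the neighbours was not tested.

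**Figure D1:**
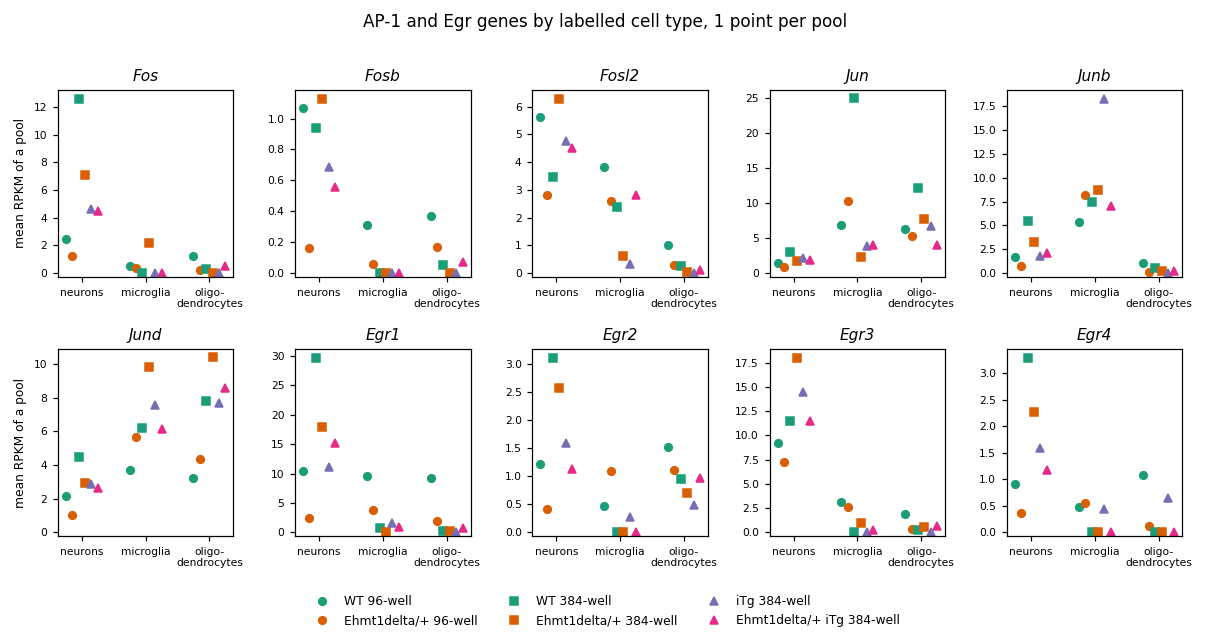
Mean RPKM (linear axis) of each member in nuclei labelled neuron, microglia or oligodendrocyte, with 1 point per pool and no error bars. Fos, Fosl2 and Egr3 were highest in neurons in all 6 pools and Junb in microglia in all 6, and Egr1 reached neuronal levels in the glia of the WT 96-well pool.

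The level of a pool rested on few nuclei for some members and on many for others. For each gene taken alone, the 5% of neurons with its highest values held 37.2% to 70.2% of the summed *Fos* RPKM of a pool, 74.7% to 87.0% for *Fosb* and 68.5% to 80.9% for *Egr2*. Chosen in the same way for each gene, such neurons held 31.3% to 46.3% for *Egr1*, 29.4% to 43.4% for *Egr3* and 21.3% to 30.0% for *Jund*, the most evenly spread member. The highest single neuron reached 388 RPKM for *Fos* and 327 for *Egr1*, both in WT 384-well, and 29 neurons of that pool had *Egr1* at 100 RPKM or more, against 0 in Ehmt1delta/+ 96-well. *Egr1* was above 0 in 62.6% to 90.1% of neurons, *Egr3* in 69.1% to 85.4%, *Jund* in 45.7% to 81.1%, *Fos* in 23.02% to 45.1% and *Fosb* in 9.06% to 28.1%. A neuron had a median of 4 or 5 members above 0, 0% to 2.29% of the neurons of a pool had none, and 1.51% to 17% had 8 or more.

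Several members tended to be read in the same neurons, and *Jun* and *Jund* less so. Over the neurons of a pool (253 to 306), the Pearson correlation of log2(RPKM + 1) had a median over 6 pools of 0.44 for *Junb* with *Egr1* (range 0.062 to 0.581), 0.43 for *Fos* with *Egr1* (0.196 to 0.678) and 0.41 for *Egr1* with *Egr3* (0.378 to 0.520). *Jun* gave medians between -0.08 and 0.08 with the other 9 members, and *Jund* with the 8 besides *Jun* gave medians of 0.06 to 0.18. The neurons of a pool share their preparation, and the Spearman correlation of a member with the read total had medians of 0.03 to 0.14, so these values describe the pools and were not tested. Outside the members, the genes most like their mean across neurons, among 21754 ranked, were *Nr4a1* (median Pearson correlation 0.55), *Npas4* (0.52), *Per1* (0.51), *Nr4a3* (0.50) and *Arc* (0.46), all of them early response genes, with the unnamed transcript *1700016P03Rik* (0.49) between the last pair.

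**Figure D2:**
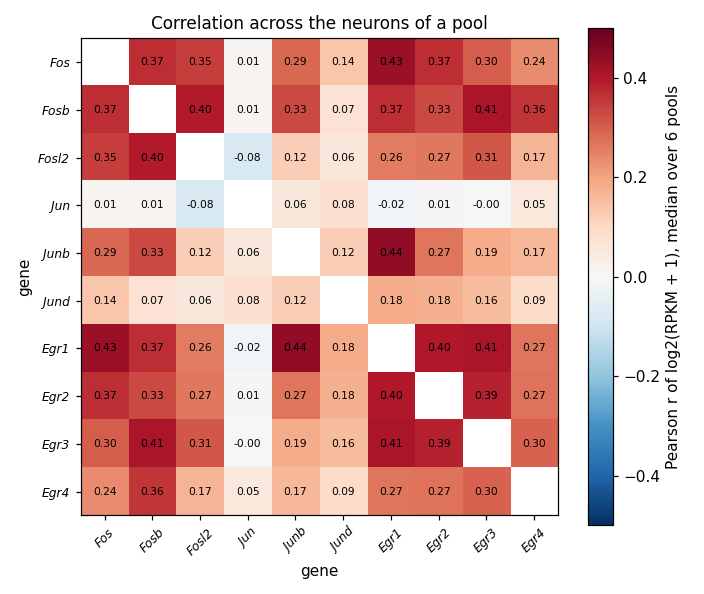
Pearson correlation of log2(RPKM + 1) between each pair of members across the neurons of a pool, as the median over 6 pools. The row of Jun stays between -0.08 and 0.08, while Fos, Fosb, Egr1, Egr2 and Egr3 reach 0.30 to 0.43 with each other.

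By labelled cell type the families parted. The labels were set by the authors from clusters of the same values, so these levels are a description. *Fos*, *Fosl2* and *Egr3* were highest in neurons in 6 of 6 pools, *Fosb* and *Egr1* in 5, and *Egr2* and *Egr4* in 4. *Junb* was highest in microglia in 6 of 6 pools, with 5.402 RPKM in WT and 8.13 in Ehmt1delta/+ microglia of the 96-well plates and 7.43, 8.75, 18.3 and 7.02 in WT, Ehmt1delta/+, iTg and Ehmt1delta/+ iTg microglia of the 384-well plates. *Prdx2*, its overlapping neighbour, had 0 to 5.33 RPKM in these microglia.

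*Jun* and *Jund* were higher in both glial types than in neurons in all 6 pools. *Jun* had 6.85, 10.2, 25.0, 2.27, 3.83 and 3.97 RPKM in microglia and 6.25, 5.37, 12.1, 7.76, 6.80 and 3.96 in oligodendrocytes, in the order of pools used for neurons. *Jund* had 3.70 to 9.83 in microglia and 3.23 to 10.4 in oligodendrocytes. The antisense *Junos* stayed at 0.082 to 1.60 RPKM in glia, while *Gm11175* reached 1.57 to 9.90, in the range of *Jund*.

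*Egr1* in glia was highest in the WT 96-well pool. In WT 96-well it averaged 10.45 RPKM in neurons, 9.57 in microglia and 9.23 in oligodendrocytes, and in Ehmt1delta/+ 96-well 2.52, 3.82 and 1.94. In the 384-well pools oligodendrocytes had 0.338% to 4.38% of the neuronal level, and microglia 0% to 13.6%. No *Egr1* read fell in the 19 microglia of Ehmt1delta/+ 384-well, which allows up to 15.8% of such nuclei to hold a read at this depth (counting error only) and sets no limit on the level. *Snap25*, a neuronal gene, was at 31.7% of its neuronal level in the oligodendrocytes of WT 96-well and at 0.981% to 6.78% in the other pools, while *Egr1* was at 88.4% in WT 96-well. Other neuronal genes differed from *Snap25* in these WT 96-well oligodendrocytes. *Syt1* was at 8.68% and *Rbfox3* at 6.43% of the neuronal level, *Slc17a7* of excitatory neurons at 5.99% and *Gad1* of inhibitory neurons at 21.5%. The part of neuronal RNA in these values was not tested.

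Within the 96-well plates *Egr1* also moved by plate code, the number that the names of the nuclei carry. Ehmt1delta/+ nuclei of code 2 had 3.71 RPKM in neurons, 9.33 in microglia and 5.15 in oligodendrocytes, while those of code 4 had 1.31, 0 and 0.531 and those of code 5 had 1.46, 0.756 and 0.484. In WT, code 5 had 14.9 in neurons and 15.3 in microglia, and code 2 had 7.82 and 6.55. In WT the 4 codes had the same order in neurons and microglia, while Ehmt1delta/+ code 7 was high in neurons (3.80) and low in microglia (0.680). WT oligodendrocytes had another order and a narrow range, with 8.37, 8.33, 10.06 and 10.03 RPKM in codes 2, 3, 4 and 5. The microglia of a code were few, from 5 nuclei (Ehmt1delta/+ code 7) to 13 (WT code 3).

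Excitatory neurons had more *Egr3* RNA than inhibitory neurons, and to a lesser degree more *Egr4*, *Jun* and *Egr1*. Neurons with *Slc17a7*, the vesicular glutamate transporter, above *Gad1*, the GABA enzyme, were called excitatory (191 to 253 per pool), and the others with *Gad1* inhibitory (43 to 73), so no member was used in the classes. limma with the pool as a block tested 25588 genes over 6 pools, of which 4915 (19.2%) were higher in excitatory neurons at an adjusted p below 0.05, and 4 of the 10 members were. Of all genes, 19.1% were higher in excitatory neurons in every pool, as were 3 members. The median difference over the 10 members was 0.63 on the log2 scale (log2 of mean RPKM + 0.1).

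*Egr3* averaged 10.1, 8.52, 14.6, 20.7, 17.8 and 13.2 RPKM in the excitatory and 6.33, 1.25, 2.82, 5.19, 1.23 and 3.51 in the inhibitory neurons of WT 96-well, Ehmt1delta/+ 96-well, WT, Ehmt1delta/+, iTg and Ehmt1delta/+ iTg 384-well. The lowest excitatory pool was above the highest inhibitory pool. The log2 difference was 2.21 (SE 0.35, limma adjusted p = 0.00258), higher in 6 of 6 pools.

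*Jun* was higher in excitatory neurons in 6 of 6 pools, by 0.79 (SE 0.15, limma adjusted p = 0.00528), with 0.984 to 3.66 RPKM in excitatory and 0.736 to 1.39 in inhibitory neurons. The call was lost when only nuclei holding 1 of the 2 class genes were used (limma adjusted p = 0.176). *Egr4* was higher in 6 of 6 by 1.41 (SE 0.46, limma adjusted p = 0.0473), with 0.388 to 4.28 against 0.105 to 1.15 RPKM. *Egr1* was higher in 5 of 6, by 0.69 (SE 0.22, limma adjusted p = 0.0423), with 2.83 to 34.8 against 1.05 to 15.7 RPKM, and in WT 96-well it was lower in excitatory neurons (9.90 against 12.1). The calls of *Egr4* and *Egr1* were near the threshold. Without WT 384-well the adjusted p was 0.115 for *Egr4* and 0.109 for *Egr1*, without iTg 0.0898 and 0.0941, and without Ehmt1delta/+ iTg 0.0564 and 0.0959. *Egr4* also lost the call without WT 96-well (0.0548) or Ehmt1delta/+ 384-well (0.0802), and *Egr1* without Ehmt1delta/+ 96-well (0.102).

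The other 6 members did not pass. *Egr2* differed by 1.25 (SE 0.64, limma adjusted p = 0.164) with excitatory values above inhibitory ones in 4 of 6 pools, and in the 384-well pools alone, an alternative chosen after the data were seen, its adjusted p was 0.0219. *Fosb* differed by 0.57, *Junb* by 0.41, *Jund* by 0.14, *Fosl2* by 0.07 and *Fos* by 0.05, with limma adjusted p between 0.120 and 0.857. *Fos* averaged 1.299 to 13.9 RPKM in excitatory and 0.871 to 9.10 in inhibitory neurons, and the ranges of the classes overlapped.

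**Figure D3:**
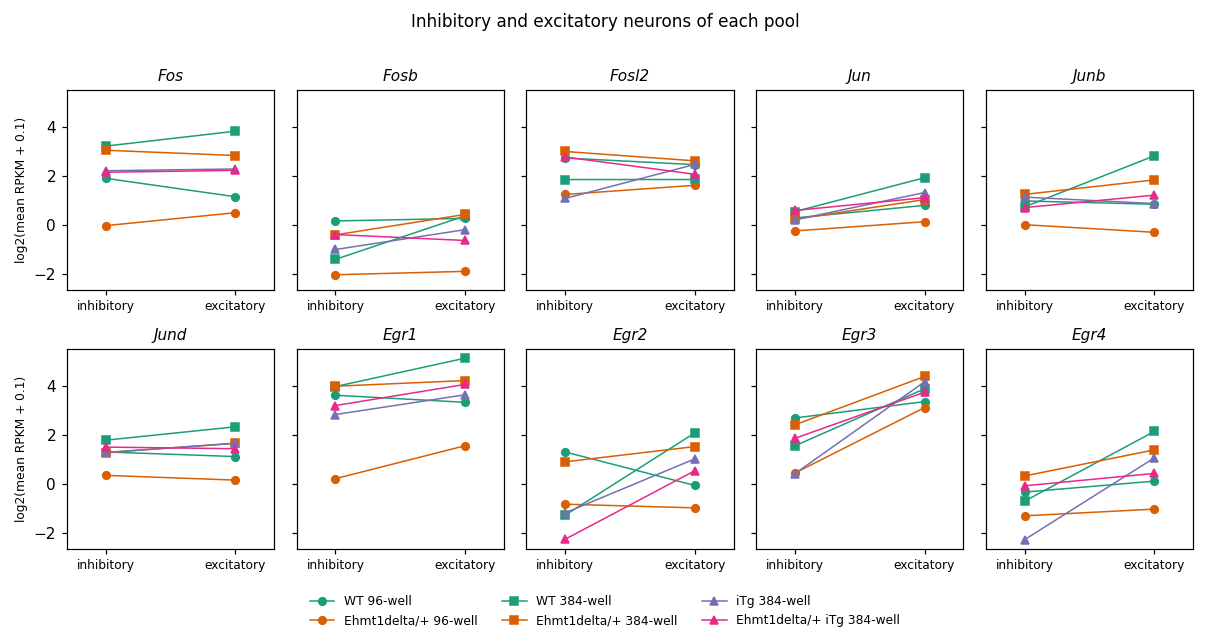
log2(mean RPKM + 0.1) of each member in inhibitory and excitatory neurons, with 1 line per pool. All 6 lines rise for Egr3, Egr4 and Jun, 5 rise for Egr1, and those of Fos and Fosl2 go both ways.

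Other genes of the response were tested in the same fit, where 4915 of 25588 genes (19.2%) were higher in excitatory neurons and 5457 were lower. Of 20 other early response genes, 19 were tested and 16 were higher in excitatory neurons, 0 lower. Among the most abundant, *Arc*, a regulator of synaptic receptors, was higher by 3.70 (SE 0.54, limma adjusted p = 0.00169), *Homer1* by 2.09 (SE 0.11, limma adjusted p = 2.5e-05), *Nr4a1* by 1.37 (SE 0.18, limma adjusted p = 0.000996) and *Per1* by 0.49 (SE 0.13, limma adjusted p = 0.0198). Of 14 other bZIP genes that can pair with Fos or Jun proteins, 10 were tested, 2 were higher and 3 lower; *Jdp2*, a repressor that pairs with Jun proteins, was higher by 1.06 and *Mafg* was lower (-0.27), while *Atf4* (-0.07) and *Atf2* (0.15) did not pass.

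The EGR corepressor gene *Nab2* was higher by 1.08 (SE 0.18, limma adjusted p = 0.00274), while *Nab1* (0.33) did not pass. Of 18 factors and kinases that act before the members, 16 were tested, 7 were higher and 3 lower. Of all 25588 genes in this fit, 4915 were higher and 5457 lower. The CREB coactivator *Crtc1* was higher by 0.62, the factor *Mef2d* by 0.42 and the JNK kinase *Mapk10* by 0.29.

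Excitatory neurons were placed in 4 layer classes by marker genes, none of them a member, and each class was compared with the mean of the other 3 over 6 pools (26426 genes, limma with the pool as a block). *Egr3* was lower in the layer 5 class in 6 of 6 pools, by -0.62 on the log2 scale (SE 0.15, limma adjusted p = 0.0094), in a contrast where 17.6% of all genes passed in either direction (2681 higher and 1961 lower, or 2097 and 2651 with classes scaled to their median). It averaged 8.59, 5.89, 8.40, 19.6, 8.59 and 8.75 RPKM in layer 5 and 9.14, 10.1, 19.03, 28.0, 17.6 and 18.4 in the layer 4/5a class of the same pools, and each pool was lower in layer 5. *Egr2* was lower there as well (-1.12, SE 0.36, limma adjusted p = 0.0422, lower in 5 of 6 pools), but not without WT 384-well (0.190), Ehmt1delta/+ 384-well (0.0603), iTg (0.147) or Ehmt1delta/+ iTg (0.0775).

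*Egr4* was lower in the layer 6 class in 6 of 6 pools (-0.89, SE 0.26, limma adjusted p = 0.0138), a contrast where 28.1% of genes passed (2942 higher and 4473 lower, or 4358 and 3534 with median scaling), with 0.745, 0.317, 1.97, 1.26, 0.654 and 0.717 RPKM there and 1.37, 0.624, 2.89, 5.97, 2.28 and 1.58 in layer 5. Without iTg its adjusted p was 0.0515. *Egr1* was higher in layer 6 in 6 of 6 pools (0.59, SE 0.21, limma adjusted p = 0.0488), with 10.01, 3.27, 39.4, 25.8, 16.1 and 29.4 RPKM, and the call was lost without Ehmt1delta/+ 96-well (0.0870), Ehmt1delta/+ 384-well (0.0783), iTg (0.112) or Ehmt1delta/+ iTg (0.178).

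*Fosl2* was higher in the upper layer class in 5 of 6 pools (0.78, SE 0.23, limma adjusted p = 0.0260), where 16.5% of genes passed. Its upper layer means were 6.06, 4.56, 5.08, 5.77, 6.83 and 7.95 RPKM, a narrower range than the 0.893 to 7.49 of layer 6. The call was lost without Ehmt1delta/+ 96-well (0.0710), iTg (0.0608) or Ehmt1delta/+ iTg (0.143). In the layer 4/5a class, where 22.1% of genes passed, 0 members did by limma, and *Egr1*, *Egr2* and *Egr3* had an unadjusted p below 0.05. *Fos* had no called difference between layers, and its highest layer was not the same in all pools, with 20.3 RPKM in the upper class of WT 384-well and 13.5 in layer 5 of Ehmt1delta/+ 384-well.

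**Figure D4:**
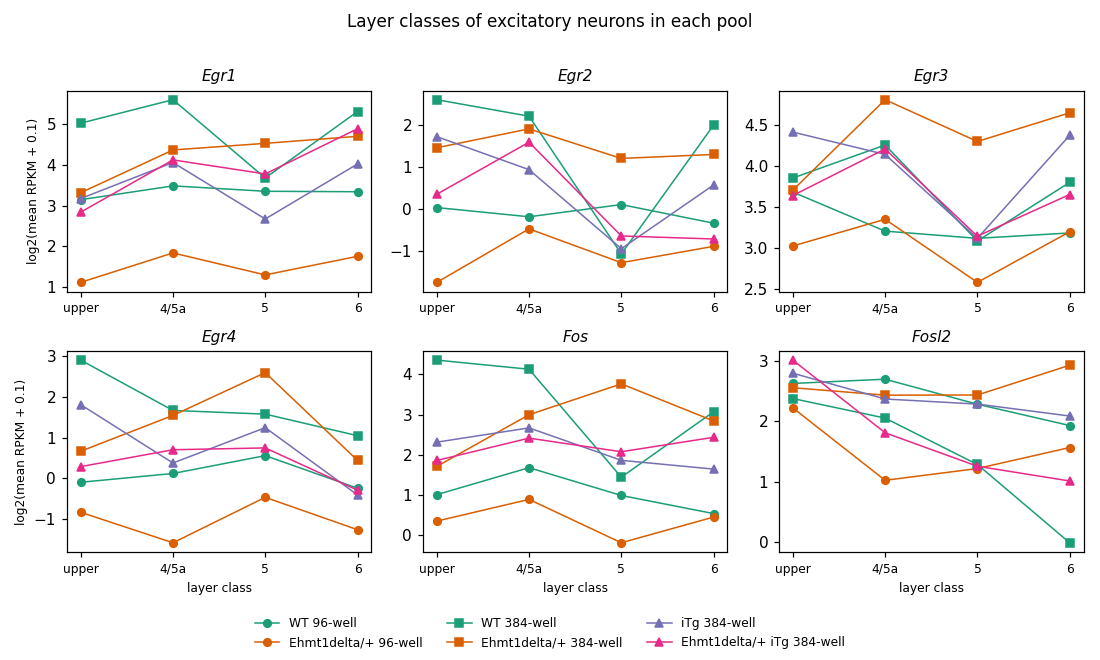
log2(mean RPKM + 0.1) of 6 members in the 4 layer classes of excitatory neurons, with 1 line per pool and a scale of its own for each gene. Egr3 dips at layer 5 against layer 4/5a in all 6 pools, and Egr4 is below its layer 5 level at layer 6 in all 6.

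Inhibitory neurons were split by markers into Sst (102 nuclei), Pvalb (78), Vip (61) and Lamp5 (92) classes, and no test was run on them. Over all pools, *Egr1* averaged 23.2 RPKM in Vip, 14.9 in Lamp5, 4.596 in Sst and 4.05 in Pvalb neurons, and *Fos* 15.2, 3.42, 1.96 and 4.58. *Egr3* averaged 9.32 in Lamp5 neurons and 0.608 to 1.85 in the other classes. Pools differed in these levels: *Egr1* in Vip neurons was 5.62 in WT 96-well (15 nuclei), 58.5 in WT 384-well (12) and 24.2 in Ehmt1delta/+ iTg (13), and in Lamp5 neurons it was 26.1 in WT 96-well, 1.98 in WT 384-well (22) and 35.8 in Ehmt1delta/+ 384-well (17), so the order of Vip and Lamp5 was not the same in all pools. For *Fos* in Vip neurons, 1 nucleus of WT 384-well, at 384 RPKM, held 90.0% of the sum of that pool.

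Neurons labelled Ehmt1delta/+ had lower means than WT in both plate formats for 7 of the 10 members, against 35.0% of all genes. By the test across all genes, 0 members passed. limma with the plate format as a block, on 4 pools and 1 residual degree of freedom, called 0 of 23853 genes (0%), while 2428 had an unadjusted p below 0.05. Of all genes, 6.99% had such a p and were lower, as were 6 members (*Fos*, *Jun*, *Junb*, *Jund*, *Egr1* and *Egr4*), and 35.0% were lower in both formats, as were 7 members. These shares depend on the fit: the genes with such a p were 761 higher and 1667 lower, with pools scaled to their median 1183 higher and 1161 lower, and without the plate block 30 higher and 48 lower. The median log2 difference was -0.81 over the members and -0.03 over all genes. With so few pools a count of 0 says nothing of the size of a change.

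Among the members *Egr1* had the largest fitted difference, -1.37 (SE 0.35, limma adjusted p = 0.469), with 2.52 against 10.45 RPKM in 96-well (-2.01) and 17.9 against 29.7 in 384-well plates (-0.73). *Fos* differed by -0.89 (SE 0.11, limma adjusted p = 0.460), with -0.96 and -0.81 in the formats. In 384-well WT and Ehmt1delta/+ neurons, *Egr1* was above 0 in 70.5% and 69.3% and *Fos* in 34.4% and 31.1%. The shares in 96-well plates were 90.1% and 62.6% for *Egr1* and 45.1% and 23.02% for *Fos*. *Junb* differed by -0.93 (-1.12 and -0.74), *Jund* by -0.79 (-0.99 and -0.60), *Jun* by -0.67 (-0.60 and -0.75), *Egr2* by -0.82 (-1.37 and -0.26) and *Egr4* by -0.81 (-1.10 and -0.52). The other members went opposite ways in the formats: *Fosb* (-2.17 and 0.24), *Fosl2* (-0.98 and 0.84) and *Egr3* (-0.33 and 0.65).

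Plates bear on this comparison. In 384-well plates all WT nuclei carried 1 plate code and the nuclei of the other 3 pools carried another, so plate code and genotype cannot be told apart there. In 96-well plates 3 codes were found in both genotypes, but each holds more nuclei than 1 such plate. Code 2 had 63 WT and 60 Ehmt1delta/+ neurons, so plate and genotype cannot be told apart here either. *Fos*, *Fosb*, *Fosl2*, *Junb*, *Jund*, *Egr1* and *Egr4* were lower in Ehmt1delta/+ in 3 of 3 codes, *Jun*, *Egr2* and *Egr3* in 2 of 3. For *Egr1* the WT codes lay between 7.82 and 14.9 RPKM and the Ehmt1delta/+ codes between 1.31 and 3.80, without overlap, and for *Junb* between 1.57 and 1.82 and between 0.637 and 0.892. For *Egr3* the codes overlapped, with 5.51 to 12.1 in WT and 6.95 to 7.64 in Ehmt1delta/+. Codes of 1 pool hold nuclei of the same 3 mice and are no replicates.

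Inhibitory nuclei were 24.5% and 25.6% of WT but 16.2% and 16.99% of Ehmt1delta/+ neurons, so excitatory neurons were compared alone. limma called 0 of 23780 genes (0%), with 2129 at an unadjusted p below 0.05. Lower with an unadjusted p below 0.05 were 6.21% of genes and 7 members, and lower in both formats were 33.0% of genes and 7 members. The split was 653 higher and 1476 lower, and 1024 higher and 1040 lower with median scaling. Inhibitory neurons were set side by side without a test, in 96-well and in 384-well plates without Cre. *Fos* (-1.93 and -0.17), *Jun* (-0.53 and -0.31) and *Jund* (-0.96 and -0.51) were lower in both. *Junb* (-0.97 and 0.51), *Egr2* (-2.13 and 2.18) and *Egr4* (-0.97 and 1.03) went opposite ways, and *Egr1* was at -3.41 and 0.01. So did *Fosb* (-2.195 and 0.999), *Fosl2* (-1.49 and 1.15) and *Egr3* (-2.25 and 0.86), each lower in 96-well and higher in 384-well plates. In oligodendrocytes (12832 genes) and microglia (13686), 0 genes (0%) passed, with 606 and 264 at an unadjusted p below 0.05. Of the members, *Jun* and *Jund* passed the filter on low values in oligodendrocytes and *Fosl2*, *Jun*, *Junb*, *Jund* and *Egr3* in microglia.

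Of the 19 other early response genes tested in neurons, 10 were lower in Ehmt1delta/+ in both formats, against 35.0% of all genes, with a median of -0.24. *Arc* (-0.57), *Nr4a1* (-0.13), *Per1* (0.13) and *Homer1* (0.68) went both ways, and none passed. Of the other bZIP genes 4 of 10 were lower in both formats (median -0.06), of the EGR corepressors 0 of 2 (0.07) and of the upstream factors and kinases 2 of 16 (0.04).

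The 4 pools of the 384-well plates, side by side with 1 pool per genotype and no test, put WT highest for 7 of 10 members and Ehmt1delta/+ for *Fosb*, *Fosl2* and *Egr3*. The Ehmt1delta/+ iTg pool was lowest for 5 members, iTg for *Junb* and *Egr1*, WT for *Fosl2* and *Egr3*, and Ehmt1delta/+ for *Jun*. Between the pools with CamKII-CreER, which share a plate code, *Fos* was 4.49 in Ehmt1delta/+ iTg and 4.64 in iTg, *Egr1* was 15.2 and 11.2, and *Egr3* 11.5 and 14.5 RPKM. WT had the highest *Fos* mean (12.6), and it was also the pool on a plate code of its own.

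**Figure D5:**
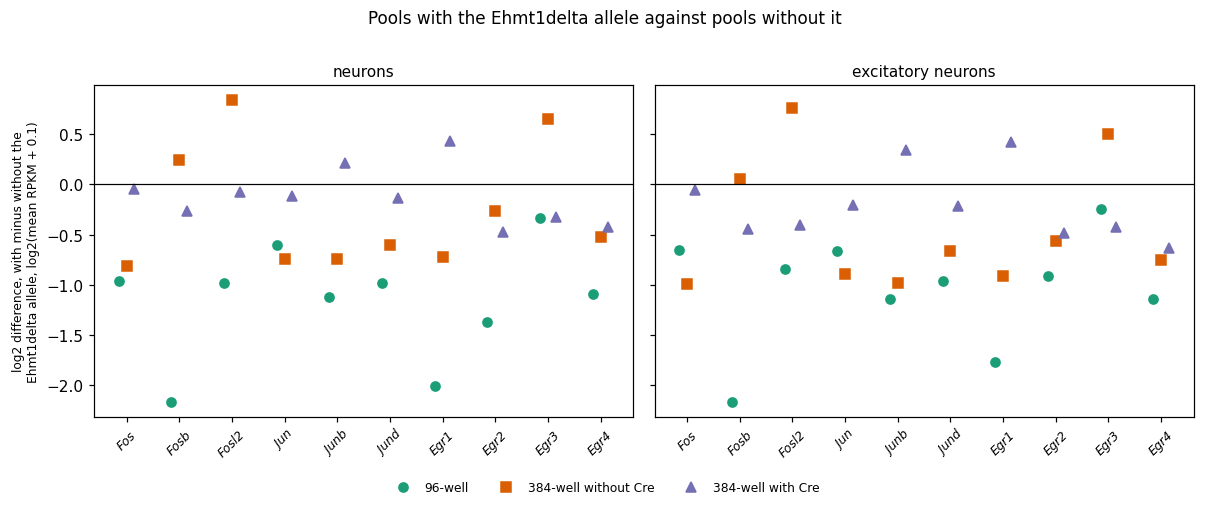
log2 difference of mean RPKM + 0.1 between pools with and without the Ehmt1delta allele, in neurons (left) and excitatory neurons (right), for the 96-well pools, the 384-well pools without CamKII-CreER and those with it. In neurons, 7 members lie below 0 in both pairs without Cre, and Junb and Egr1 lie above 0 in the pair with Cre.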

How the data were processed

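Nuclei had been isolated on an iodixanol gradient and sorted by DAPI, and libraries were sequenced as single reads. By the study's methods and notes, the authors used Fastq-mcf for trimming, HISAT2 2.0.4 for mapping to mm10, and counted them per gene with featureCounts of Subread 1.5.0 at default settings and a Gencode annotation. For each plate format the authors deposited a table of RPKM over 52636 genes, limited to the nuclei they kept, with cell types from UMAP clusters and marker genes. Symbols were matched to the gene ids through a separate reference list of gene names, and positions and overlaps came from GENCODE M21. Read totals were recovered from the steps between low values: 68.5% (96-well) and 74.7% (384-well) of values above 0 were whole reads, and the source of the other values was not tested.

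Mean RPKM was taken per pool and set of nuclei, 0.1 was added before log2, which understates changes of low genes, and pools were compared with limma 3.58.1 (R 4.3.3), adjusting p-values over all genes tested by Benjamini-Hochberg, with a threshold of 0.05. Genes above 0 in at least 10% of nuclei of a group were tested: in both plate formats for genotype, and in at least 3 pools for classes. A nucleus joined the layer or interneuron class whose markers had the highest mean z score. The study tested single nuclei with a count model, which treats nuclei as replicates and needs counts; here pools were the unit. Shares carry counting error only, and a share of 0 has a limit of 3 counts. Thinning each nucleus to 1 read total per plate format (291080 reads, leaving out 52 neurons and 2 oligodendrocytes, and 26382 reads, leaving out 8 microglia and 11 oligodendrocytes) gave *Fos* above 0 in 12.3% to 43.5% and *Egr1* in 34.3% to 90.0% of the neurons of a pool. The code was tested on simulated data. Other steps used Python 3.11.15, pandas 2.3.3 and SciPy 1.17.1.

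The named genes are the 10 members, at most 4 genes with the highest neuronal mean of each of 4 lists, and the 5 genes most like the members' mean; *1700016P03Rik* was named after its value was seen. A gene that this rule names is not reported here. *Mkl1* and *Mkl2* matched no row by symbol. The members and lists were chosen with earlier results of these data known. Alternatives were another pseudocount, no filter, the mean of log2 values, a trend in limma, median scaling, other blocks and classes, and each pool left out.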

Additional observations from a re-analysis of the deposited data

Results flagged for a closer look

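All results here are differences between pools with and without the Ehmt1delta allele, in log2 of mean RPKM + 0.1, that went opposite ways in sets of nuclei, and none of these contrasts was tested, since each pair has 1 pool per side. In neurons, *Fosb* was at -2.17 in 96-well plates and 0.24 in 384-well plates without Cre, and at -0.26 in the 384-well pair with CamKII-CreER. *Fosl2* was at -0.98, 0.84 and -0.07 in the same 3 pairs, and *Egr3* at -0.33, 0.65 and -0.33. *Junb* was at -0.74 without and 0.22 with Cre in the 384-well plates, and *Egr1* at -0.73 and 0.44.

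Neurons and glia went opposite ways for *Junb* and *Jund* in the 96-well and the 384-well pair without Cre, in the cell types named here. *Junb* was at -1.12 and -0.74 in neurons but at 0.58 and 0.23 in microglia, while oligodendrocytes had the sign of neurons (-2.42 and -1.02). *Jund* was at -0.99 and -0.60 in neurons, at 0.60 and 0.65 in microglia, and at 0.41 and 0.41 in oligodendrocytes. *Jun* was at -0.60 and -0.75 in neurons, -0.21 and -0.64 in oligodendrocytes and 0.57 and -3.41 in microglia. In the 384-well pair with CamKII-CreER, *Junb* was at 0.22 in neurons, -1.37 in microglia and 1.80 in oligodendrocytes. There *Jund* was at -0.14, -0.30 and 0.17. The microglia of the 384-well pair without Cre were 16 WT and 19 Ehmt1delta/+ nuclei. *Junb* was above 0 in 18.8% and 26.3% of them and *Jund* in 31.3% and 26.3%. *Junb* overlaps *Prdx2* and *Jund* overlaps *Gm11175*, and the part of these neighbours was not tested.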

How the results depend on the processing

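Depth limits glia of the 384-well plates most, and 1 residual degree of freedom limits the genotype fits. The excitatory call of *Egr3* and its lower level in layer 5 passed under every alternative run. Genes called in oligodendrocytes went from 0 to 6 (mean log2), 2 (limma trend) and 1 to 39 with a pool left out, and in excitatory neurons by genotype from 0 to between 0 and 1. Between the classes, 5916 genes passed with nuclei holding 1 of the 2 class genes, 5 members passed with mean log2 or in the 384-well pools alone, 2 without the filter, and 2 to 4 with a pool left out; *Jun* was lost with the former (adjusted p = 0.176). In the 384-well pools alone, genes called fell to 2361 (upper layer), 3541 (4/5a), 2136 (5) and 4892 (6). Members called in the upper layer were 2 with mean log2, trend or median scaling, 0 in the 384-well pools or with a score gap of 0.5, and 0 to 2 with a pool left out; in layer 4/5a 3 with mean log2, 1 with trend, 2 with the score gap and 0 to 1; in layer 5 3 with mean log2, 1 without the filter and 1 to 2; in layer 6 3 with the score gap, 1 with a pseudocount of 0.01, without the filter or in the 384-well pools, and 0 to 2.

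By genotype, 3 signs turned: *Egr3* over 6 pools in 3 sets (-0.0042 in neurons, -0.054 in excitatory neurons) and *Fosl2* in excitatory neurons with median scaling (0.019). Leaving out a pool, which also drops the plate block, turned more, with ranges in neurons of -2.11 to 0.34 for *Fos*, -2.08 to 0.16 for *Fosb*, -0.64 to 0.50 for *Fosl2*, -1.93 to 0.063 for *Junb*, -2.76 to 0.022 for *Egr1*, -2.01 to 0.38 for *Egr2*, -0.49 to 0.81 for *Egr3* and -1.97 to 0.36 for *Egr4*. In excitatory neurons the ranges were -2.16 to 0.52 for *Fos*, -2.21 to 0.11 for *Fosb*, -0.54 to 0.46 for *Fosl2*, -2.13 to 0.0059 for *Junb*, -1.99 to 0.51 for *Egr2*, -0.51 to 0.77 for *Egr3* and -2.16 to 0.26 for *Egr4*. Between excitatory and inhibitory neurons, *Fos* ranged from -0.058 to 0.21 and *Fosl2* from -0.20 to 0.22. The cause of these changes was not tested. No paired analysis of genotypes was possible because the labels give pools no replicate numbers, and genotypes were fitted with the plate format as a block. Classes were fitted with the pool as a block, which pairs the classes of a pool.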
